A study of Homo sapiens and Mus musculus with 55 samples.

Results

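Cancer-testis antigens are proteins made in testis germ cells and in many tumours but in few other adult tissues. The genes described here are the members of the largest X-linked families of this kind, MAGE, SSX, GAGE, PAGE, XAGE and CTAG, taken as every listed symbol that starts with MAGEA, MAGEB or MAGEC and a digit, with SSX and a digit, or with GAGE, PAGE, XAGE or CTAG. The rule found 77 of the 39118 gene symbols in the 8 human expression tables. Of these, 58 reached a mean of at least 10 in a group of libraries and are reported, and 19 stayed below 10 in every group. The 58 comprise 44 family members (9 of 14 listed MAGEA genes, 1 of 7 MAGEB, 2 of 3 MAGEC, 8 of 11 SSX, 13 of 13 GAGE, 5 of 5 PAGE, 3 of 5 XAGE and 3 of 3 CTAG) and 14 genes that share only the letters: SSX2IP, a centrosomal protein named for binding SSX2, and 13 CTAGE genes. The 14 are described apart.

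The libraries are RNA-seq of 2 human triple-negative breast cancer cell lines, MDA-MB-436 and SUM159PT, in a study whose title concerns repression of STING, a signalling protein of innate immunity, by the transcription factor MYC. Each line was measured in 4 experiments, each with its own table, for 40 human libraries in 20 groups of 2. In the first, parental cells were set against cells labelled Tax-R. In the second, Tax-R cells received a control siRNA or 1 of 2 siRNAs against MYC. In the third, mock cells were set against 2 groups with an sgRNA against STING, labelled C1 and C2. In the fourth, STING sgRNA cells carried an open reading frame (ORF) of GFP or of STING. All cells of the second experiment are therefore Tax-R cells, and all cells of the fourth, the GFP controls included, carry the STING sgRNA. The labels give no drug, dose or time for the Tax-R cells and do not say whether C1 and C2 are single clones. Nothing states that the libraries of a group came from separate cultures, so p-values measure the spread between these libraries, which may be technical.

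As background, MAGE proteins bind RING-type E3 ubiquitin ligases and redirect them to other substrates, and MAGEC2, MAGEA3 and MAGEA6 are known partners of TRIM28. SSX proteins are nuclear proteins that act on chromatin, and SSX1, SSX2 and SSX4 are the genes fused to SS18 in synovial sarcoma. GAGE, PAGE and XAGE genes encode small, related acidic proteins. CTAG1A and CTAG1B encode NY-ESO-1 and CTAG2 encodes LAGE-1, both well-known targets of tumour-reactive T cells. In most somatic tissues the promoters of these genes are methylated at CG dinucleotides, and the genes are silent.

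Values are reads per gene, scaled by the authors with a single factor for each library of a table, and are called normalised counts below. Library depth was 9835655 to 13191675 reads in the 2 Tax-R tables and 5663610 to 7728815 in the others. Levels from different tables were normalised separately and are not compared by a test. The labelled cell type was checked against markers: KRT8 ranged from 1312 to 8506 over the 20 groups and VIM from 1105 to 20070. The epithelial markers EPCAM, CDH1 and KRT19 did not exceed 21.8, 6.89 and 4.55 where listed. ESR1 did not exceed 18.5, PGR was not listed, and ERBB2 stood at 375 to 1147. Of 7 germ-cell markers, 1 to 4 were above 0 in a group, SYCP3 was highest at 15.7 to 95, and PRM1, PRM2 and TNP1 were not listed. Over 18878 genes the Tax-R groups of the lines correlated with each other (r = 0.97, a description across genes in tables normalised apart) more closely than each did with its own parental group (0.93 and 0.93), and the parental groups correlated at 0.95. The retinoblastoma gene RB1, chosen after its values were seen, stood at 23.4 to 36.7 in the SUM159PT STING sgRNA and ORF groups. It stood at 159.9 to 373.0 in the SUM159PT siRNA groups and at 862 to 1056 in the SUM159PT parental and Tax-R groups. The MDA-MB-436 levels, in the same order, were 347.2 to 499.9, 307.4 to 460.1, and 1089 and 1141. Whether the same cells were used in all 4 experiments, and whether the line labels hold in each, was not tested. The 2 MDA-MB-436 Tax-R libraries differed by less than sampling noise over most genes (chi-square per gene 0.82 for 20695 genes, against 8.25 for the 100 most abundant, and 1.02 to 2.73 in the 19 other pairs); they are counted as 2 libraries here, and counting them as 1 moved no count of members past the threshold by more than 1.5 times.

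Many members are near-identical copies, and reads from one can be assigned to another. In the GENCODE v29 transcripts, the 58 members form 36 groups when members that share at least 50% of their 75-base stretches are joined, and 8 of these groups hold 30 members between them. The 13 GAGE genes form 1 such group, and the others include MAGEA2 with MAGEA2B, SSX2 with SSX2B, SSX4 with SSX4B, XAGE1A with XAGE1B and CTAG1A with CTAG1B. MAGEA1, MAGEA11, MAGEC1, MAGEC2, MAGEB2, PAGE1, PAGE3, XAGE2 and SSX2IP have every stretch to themselves. The share found in no other gene is 99.0% for SSX1, 98.8% for SSX3, 95.1% for MAGEA12, 87.9% for GAGE1, 60.2% for MAGEA6, 57.9% for MAGEA3, 6.8% for MAGEA2, and 0% for SSX2, SSX4 and XAGE1A. A change of a single GAGE gene is therefore uncertain, less so for GAGE10 (67.7%). The annotated transcripts of GAGE1 hold 3134 stretches, against 453 for GAGE12C and 464 for GAGE10. Which of them the reads assigned to GAGE1 came from was not tested, so changes of GAGE1 are uncertain too. How reads that match several copies were counted in each table is not given, and levels of such genes differ widely between tables: GAGE12C stood at 269 to 1374 in the libraries of the Tax-R tables and at 4.17 to 60.9 in those of the 5 other tables that report it. The part of the counting in this difference was not tested.

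Promoter sequences are shown for 5 members because their levels turned out to move apart: MAGEA2B and MAGEA3 are close relatives that changed in opposite directions in Tax-R cells, SSX2 fell to the limit of detection, and MAGEC1 and MAGEC2 are neighbours on the X chromosome with different responses. Each is the stretch before the first annotated exon, at most 250 bases, from RefSeq on GRCh38.p14, 5′ to 3′ on the gene's strand. Each CG is in capitals. The bases after the start lay in a GENCODE transcript for MAGEA2B, MAGEC1 and MAGEC2, but in none for MAGEA3 and SSX2. All 5 lie on chromosome X: MAGEA2B at chrX:152714378-152714585 on the plus strand (208 bases, 8 CG), MAGEA3 at chrX:152698544-152698751 on the plus strand (208 bases, 8 CG), SSX2 at chrX:52707228-52707477 on the minus strand (250 bases, 7 CG), MAGEC1 at chrX:141903644-141903893 on the plus strand (250 bases, 11 CG) and MAGEC2 at chrX:142205291-142205540 on the minus strand (250 bases, 6 CG).
MAGEA2B: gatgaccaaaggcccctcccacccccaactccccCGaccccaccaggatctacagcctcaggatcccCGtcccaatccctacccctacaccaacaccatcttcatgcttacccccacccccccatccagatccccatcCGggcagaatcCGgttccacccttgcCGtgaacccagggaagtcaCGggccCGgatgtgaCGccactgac
MAGEA3: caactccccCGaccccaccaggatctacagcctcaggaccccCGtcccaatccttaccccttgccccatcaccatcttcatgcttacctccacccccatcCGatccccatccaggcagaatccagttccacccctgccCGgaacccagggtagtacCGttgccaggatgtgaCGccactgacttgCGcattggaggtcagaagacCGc
SSX2: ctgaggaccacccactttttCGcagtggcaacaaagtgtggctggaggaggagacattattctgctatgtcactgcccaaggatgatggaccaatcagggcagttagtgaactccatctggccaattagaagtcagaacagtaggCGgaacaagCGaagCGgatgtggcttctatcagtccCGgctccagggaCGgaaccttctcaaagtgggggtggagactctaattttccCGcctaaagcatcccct
MAGEC1: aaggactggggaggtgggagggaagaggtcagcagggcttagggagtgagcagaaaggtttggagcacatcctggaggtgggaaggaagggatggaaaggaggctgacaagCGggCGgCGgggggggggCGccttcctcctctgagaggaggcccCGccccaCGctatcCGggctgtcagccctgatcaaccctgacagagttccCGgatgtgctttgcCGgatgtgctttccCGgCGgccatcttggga
MAGEC2: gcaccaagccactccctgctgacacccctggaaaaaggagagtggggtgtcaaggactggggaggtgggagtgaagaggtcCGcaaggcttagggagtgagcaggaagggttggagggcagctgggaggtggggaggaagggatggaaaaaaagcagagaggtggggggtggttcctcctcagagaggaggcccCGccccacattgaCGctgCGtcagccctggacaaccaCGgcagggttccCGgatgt

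RefSeq windows of the 250 bases before the start were found for 44 of the 58 members, 37 of them in the families, and all 37 lie on chromosome X. The windows of MAGEA2B, MAGEA3 and MAGEA6 run past the end of the stretch before the first annotated exon. That of MAGEA3 holds 15 CG, against 8 in the stretch printed above. The family windows held a median of 8 CG dinucleotides (3 in SSX1 to 18 in MAGEA11), against a median of 11 in 35116 windows of all genes, at a GC content of 62.4% against 58.0%. The windows of MAGEA3 and MAGEA6 are 100% identical. The MAGEA2B window aligns to that of MAGEA3 over 228 bases at 89.9% identity, and the MAGEA2 window aligns to that of MAGEA12 over 245 bases at 93.1%. The E-box CACGTG, the core site that MYC and other factors recognise, occurs on either strand in 6.3% of all windows and in 3 of the 37 family windows (PAGE1, PAGE2B and PAGE5). The ETS-type core CCGGAA occurs in 14.5% of all windows and in 2 of the 37 (MAGEA3 and MAGEA6), and the E2F-type GCGGGAA in 5.5% of all windows and in 4 of the 37 (SSX1, SSX2, SSX2B and SSX4). A match describes the letters of the window and not binding.

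In Tax-R cells the families split. All tested SSX and GAGE genes, PAGE1, PAGE2, PAGE2B, MAGEA2 and MAGEA2B fell in both lines, while MAGEA3, MAGEA6, MAGEC2 and the 3 CTAG genes rose in both. Changes are log2 differences of (normalised count + 1) ± their standard error, tested with limma, 2 libraries against 2, and called at an adjusted p (Benjamini-Hochberg over all genes) below 0.05; genes needed a table mean of at least 10. In MDA-MB-436, 12 of 53 tested members rose and 27 fell, where 27.7% of all 19085 genes rose and 26.9% fell. In SUM159PT, 10 of 55 rose and 31 fell, where 23.5% of 18370 genes rose and 22.1% fell. In either direction 54.6% and 45.7% of all genes were called. Many of the falls are in near-identical copies: with these averaged, an alternative added after the data were seen, 10 units rose and 12 fell of 32 in MDA-MB-436, and 8 rose and 14 fell of 34 in SUM159PT. The members' median change was -1.63 in MDA-MB-436 and -1.67 in SUM159PT, and that of all genes was 0.01 in each. Of 52 members tested in both lines, 34 were called in both: 6 rose in both, 25 fell in both and 3 moved in opposite directions. The share of all genes called in both lines was not counted, so these counts have no background. Nor was the share of all genes whose groups did not overlap counted, in this or later comparisons. With 2 libraries a group, groups can lie apart without a change. In bulk RNA, fewer cells that express a gene and less RNA per cell cannot be told apart. The target named in the study, STING1 (listed as TMEM173), was 397 ± 21.3 in parental and 194 ± 3.39 in Tax-R MDA-MB-436 cells (SD, n = 2), and 528.0 ± 41.0 and 160.4 ± 5.56 in SUM159PT.

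**Figure D1:**
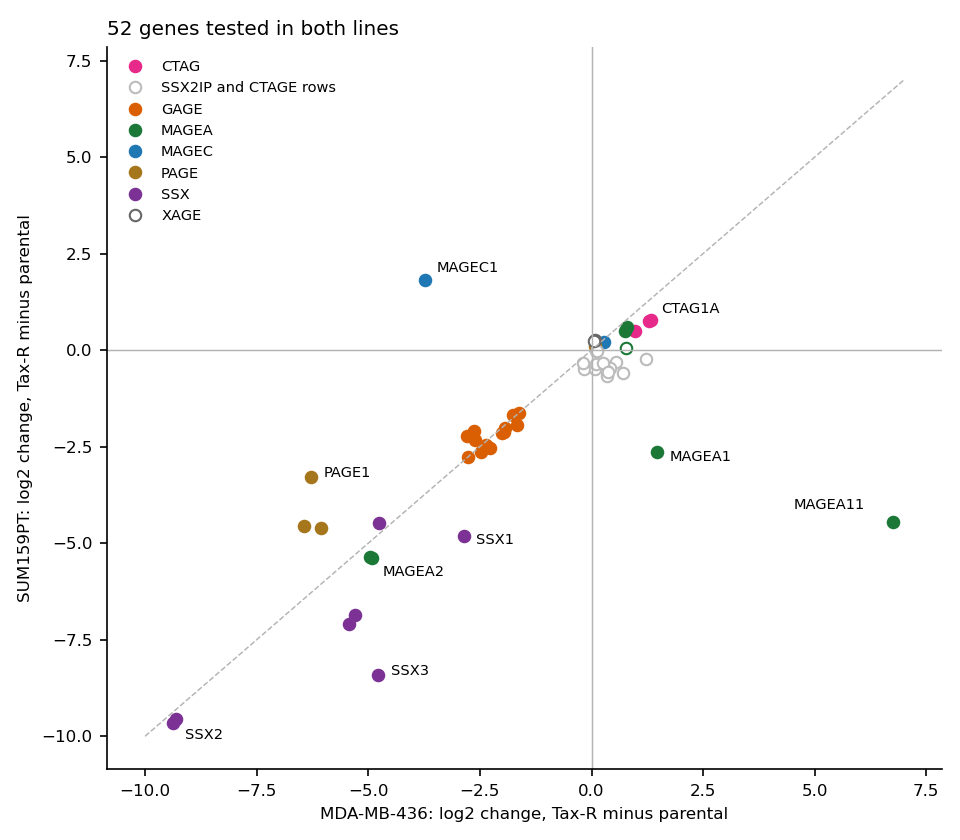
Log2 change in Tax-R against parental cells for the 52 members tested in both lines, MDA-MB-436 on the horizontal axis and SUM159PT on the vertical axis; each point is a gene coloured by family, filled where it was called in both lines, and the dashed line marks equal changes. SSX, GAGE, MAGEA2 and MAGEA2B lie in the lower left and CTAG, MAGEA3 and MAGEA6 in the upper right, while MAGEA11 (6.76 and -4.45), MAGEA1 (1.46 and -2.65) and MAGEC1 (-3.74 and 1.82) lie in the other quadrants.

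All tested SSX genes fell. In MDA-MB-436, SSX2 stood at 904 and 979 in the parental libraries and 1.0 and 0 in the Tax-R libraries, which is 1 read in the 2 Tax-R libraries against 2076 in the parental ones. In SUM159PT, SSX2 stood at 831 and 775 in the parental libraries and 0 and 0 in the Tax-R libraries, with no read in either Tax-R library. The groups did not overlap in either line, and the fall was 1880-fold in MDA-MB-436 (exact 95% interval 337 to 74300, counting error only) and at least 532-fold in SUM159PT, where 3 reads over the pair of libraries were taken as the floor. SSX2B, which shares 67.4% of its 75-base stretches with SSX2, fell 1780-fold (319 to 70300) and at least 500-fold. SSX3, which has nearly all its sequence to itself, stood at 31.5 and 22.2 in the parental libraries and 0 and 0 in the Tax-R libraries in MDA-MB-436 and at 352 and 333 in the parental libraries and 0 and 0 in the Tax-R libraries in SUM159PT, falls of at least 17.7-fold and at least 227-fold. Its parental level in this experiment was higher in SUM159PT than in MDA-MB-436, with the lines normalised apart. In the mock cells of the third experiment SSX3 stood at 0 and 1.92 in SUM159PT and at 2.93 and 6.46 in MDA-MB-436. SSX2 stood at 24.8 and 22.1 in those SUM159PT mock cells.

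SSX4 stood at 54.5 and 54.9 in the parental libraries and 0 and 1.03 in the Tax-R libraries in MDA-MB-436, a 107-fold fall (18.8 to 4250),. In SUM159PT, SSX4 stood at 126 and 106 in the parental libraries and 0 and 0 in the Tax-R libraries, a fall of at least 76.9-fold. SSX4B fell 117-fold (20.7 to 4670) and at least 89.1-fold, and SSX7 at least 17.2-fold and at least 14.1-fold. SSX1 kept some reads: it stood at 131 and 127 in the parental libraries and 14 and 20.5 in the Tax-R libraries in MDA-MB-436 (-2.86 ± 0.20, adjusted p = 4.31e-07). In SUM159PT, SSX1 stood at 124 and 94 in the parental libraries and 4.09 and 1.98 in the Tax-R libraries (-4.81 ± 0.32, adjusted p = 2.3e-06). SSX6, the least abundant, had 3 reads left in each pair of Tax-R libraries, for a 12.7-fold fall in MDA-MB-436 (4.08 to 64.2), and was below the level for testing in SUM159PT. Thus 8 of 8 tested SSX genes fell in MDA-MB-436 and 7 of 7 in SUM159PT.

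**Figure D2:**
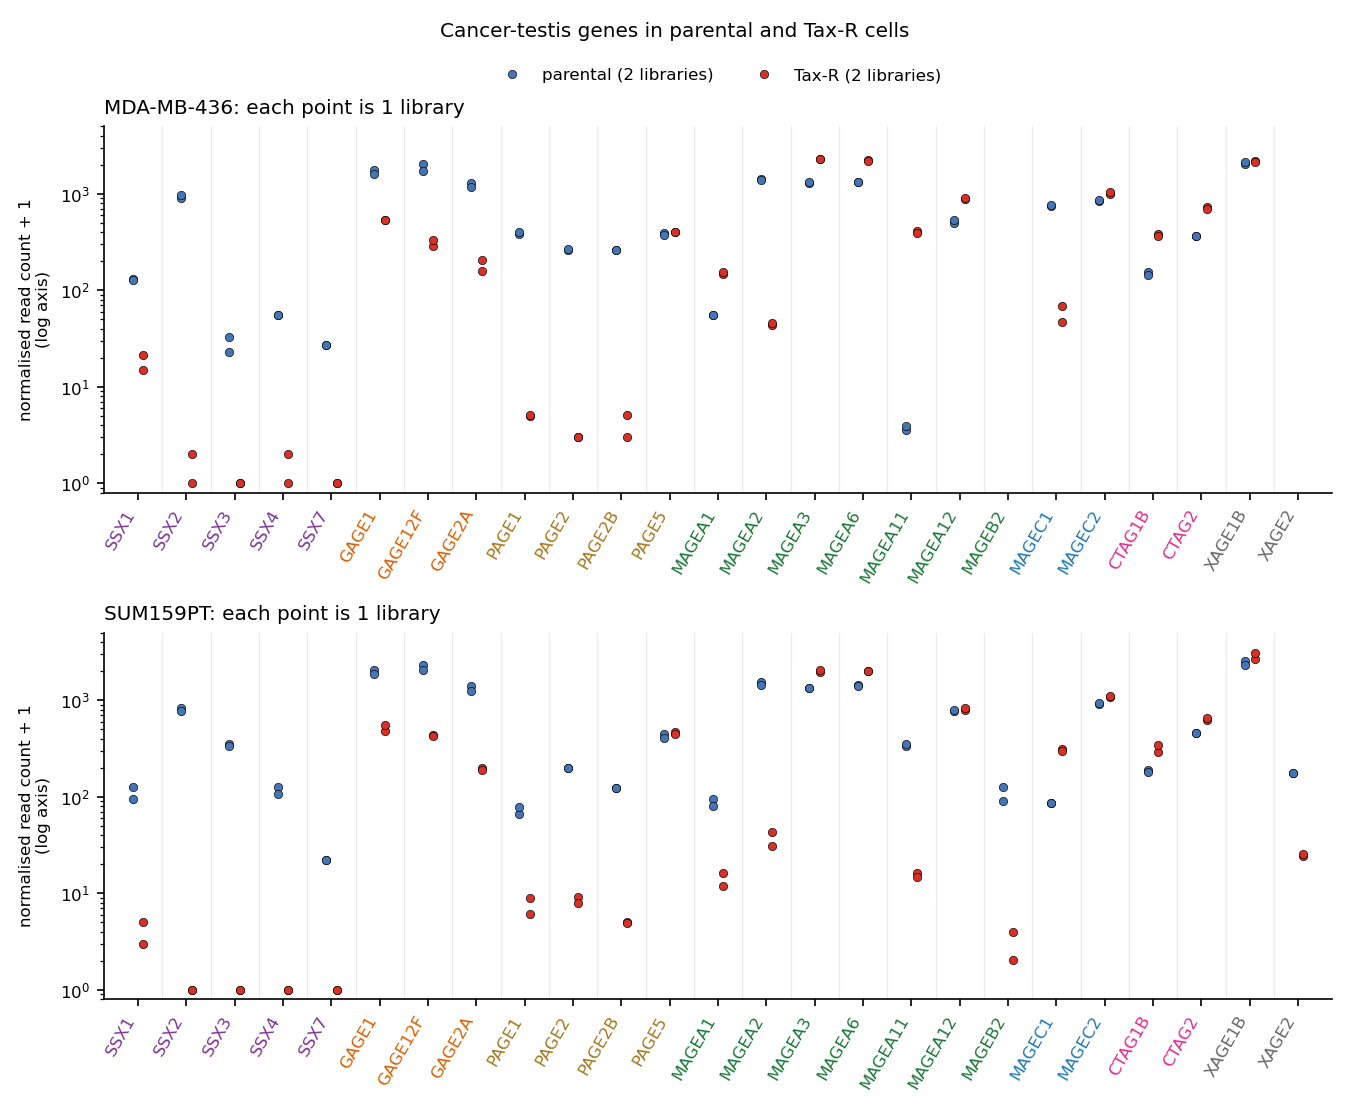
Normalised counts plus 1 on a log axis in each parental and Tax-R library for members of each family, MDA-MB-436 above and SUM159PT below; each point is a library, and MAGEB2 and XAGE2 are shown for SUM159PT alone. SSX2 drops from 775.3 or more in every parental library to 1.0 or 0 in the Tax-R libraries, while MAGEA3 rises from at most 1339 to at least 1977.

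The PAGE genes divided: PAGE1, PAGE2 and PAGE2B lost nearly all reads, and PAGE5 did not pass the test. PAGE1, whose sequence is its own, stood at 383 and 402 in the parental libraries and 4.0 and 4.10 in the Tax-R libraries in MDA-MB-436 (-6.28 ± 0.17, adjusted p = 3.4e-10). In SUM159PT it stood at 65 and 77.2 in the parental libraries and 5.11 and 7.92 in the Tax-R libraries (-3.28 ± 0.27, adjusted p = 1.07e-05). PAGE2 stood at 260 and 268 in the parental libraries and 2.0 and 2.05 in the Tax-R libraries in MDA-MB-436 (-6.45 ± 0.21, adjusted p = 1.24e-09). In SUM159PT, PAGE2 stood at 199 and 199 in the parental libraries and 8.18 and 6.93 in the Tax-R libraries (-4.55 ± 0.20, adjusted p = 1.43e-07). PAGE2B fell alongside, from 263 and 262 to 2.0 and 4.10 in MDA-MB-436 and from 123 and 121 to 4.09 and 3.96 in SUM159PT. No Tax-R library of these 3 genes reached any parental one. PAGE5 stood at 389 and 373 in the parental libraries and 397 and 401 in the Tax-R libraries in MDA-MB-436 and at 446 and 400.5 in the parental libraries and 465 and 449.5 in the Tax-R libraries in SUM159PT (adjusted p = 0.31 and 0.194). PAGE3, low throughout, was called in SUM159PT alone, at 11.2 and 3.36 in the parental libraries and 23.5 and 15.8 in the Tax-R libraries (1.48 ± 0.47, adjusted p = 0.028), and lost the call under DESeq2, with no filter on low values, and without SUM159PT parental replicate 2 or Tax-R replicate 1.

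The 13 GAGE genes fell in both lines, with changes of -2.79 to -1.63 in MDA-MB-436 and by -2.76 to -1.64 in SUM159PT. GAGE1, the member with most sequence of its own, stood at 1777 and 1592 in the parental libraries and 528 and 532 in the Tax-R libraries in MDA-MB-436 (-1.66 ± 0.05, adjusted p = 8.39e-10). In SUM159PT, GAGE1 stood at 2057 and 1860 in the parental libraries and 473 and 553 in the Tax-R libraries (-1.93 ± 0.07, adjusted p = 6.87e-08). GAGE12F stood at 2058 and 1741 in the parental libraries and 284 and 332 in the Tax-R libraries in MDA-MB-436. In SUM159PT, GAGE12F stood at 2288 and 2062 in the parental libraries and 437 and 428 in the Tax-R libraries. GAGE12G stood at 2066 and 1741 in the parental libraries and 349 and 389.9 in the Tax-R libraries and at 2285 and 2065 in the parental libraries and 429 and 366 in the Tax-R libraries, in the same order of lines. In all 3 genes every Tax-R library was below every parental library, and the Tax-R levels were 284 or more, where those of PAGE1 were 7.92 or less.

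GAGE13 stood at 1643 and 1848 in the parental libraries and 489 and 539.7 in the Tax-R libraries in MDA-MB-436. In SUM159PT, GAGE13 stood at 1817 and 1572 in the parental libraries and 521 and 539 in the Tax-R libraries. GAGE12J stood at 1321 and 1512 in the parental libraries and 414 and 504 in the Tax-R libraries and at 1515 and 1287 in the parental libraries and 432 and 464 in the Tax-R libraries. GAGE12C stood at 1126 and 1048 in the parental libraries and 269 and 282 in the Tax-R libraries and at 1355 and 1374 in the parental libraries and 297 and 325 in the Tax-R libraries. The groups were again separate. The remaining members, GAGE10, GAGE12B, GAGE12D, GAGE12E, GAGE12H, GAGE2A and GAGE2E, had parental levels from 41.4 (GAGE12B) to 1404 (GAGE2A) and all fell. Since most copies have little or no sequence of their own (GAGE1 and GAGE10 are the exceptions), normalised counts were also averaged over the 13 genes. This alternative was added after the data were seen, and abundant copies weigh most in it. The log2 of the mean count fell by 2.12 ± 0.06 in MDA-MB-436 (limma adjusted p = 4.95e-10) and by 2.15 ± 0.06 in SUM159PT (adjusted p = 8.15e-09).

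**Figure D3:**
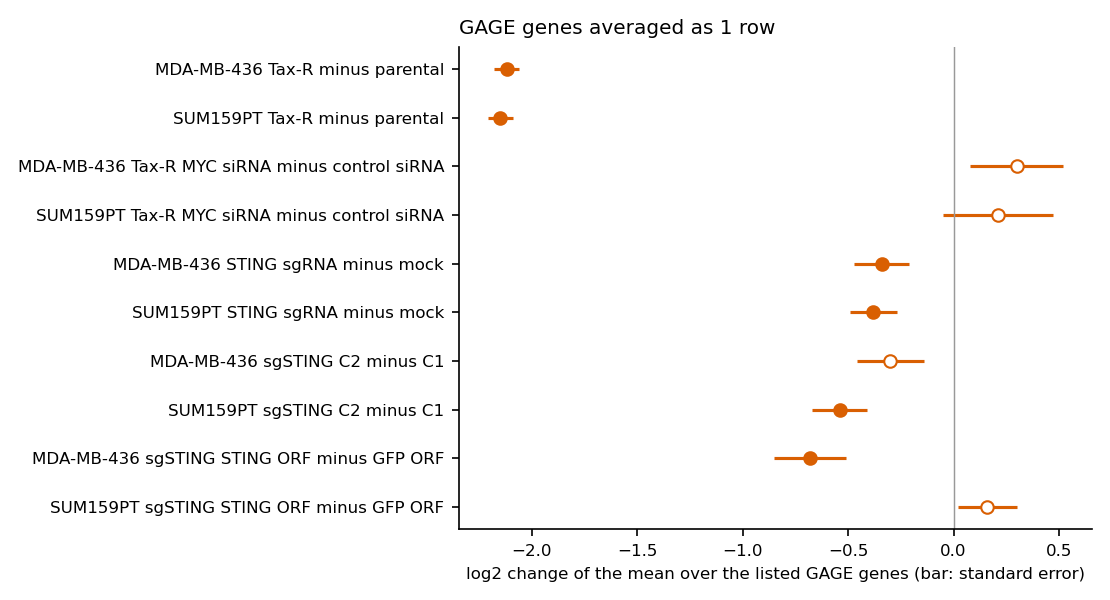
Log2 change of the mean over the listed GAGE genes (horizontal axis) in each of the 10 comparisons (vertical axis); bars are standard errors and filled points passed the test. The Tax-R changes lie at -2.12 in MDA-MB-436 and at -2.15 in SUM159PT, and all the others between -0.68 and 0.30.

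Within the MAGEA family, close relatives parted. MAGEA2 stood at 1436 and 1381 in the parental libraries and 43 and 45.1 in the Tax-R libraries in MDA-MB-436 (-4.97 ± 0.07, adjusted p = 4.82e-12),. In SUM159PT, MAGEA2 stood at 1532 and 1429 in the parental libraries and 29.7 and 41.6 in the Tax-R libraries (-5.36 ± 0.14, adjusted p = 6.48e-09). Its copy MAGEA2B stood at 1454 and 1416 in the parental libraries and 47 and 46.2 in the Tax-R libraries and at 1492 and 1435 in the parental libraries and 29.7 and 38.6 in the Tax-R libraries (-4.91 ± 0.07 and -5.39 ± 0.12). Both genes lost nearly all reads, with no overlap between groups. MAGEA3 stood at 1300 and 1330 in the parental libraries and 2276 and 2295 in the Tax-R libraries in MDA-MB-436 (0.80 ± 0.03, adjusted p = 1.12e-08). In SUM159PT, MAGEA3 stood at 1339 and 1326 in the parental libraries and 1977 and 2043 in the Tax-R libraries (0.59 ± 0.04, adjusted p = 1.73e-06). MAGEA6, which shares much of its sequence with MAGEA3, stood at 1333 and 1322 in the parental libraries and 2225 and 2212 in the Tax-R libraries and at 1445 and 1387 in the parental libraries and 1988 and 1986 in the Tax-R libraries (0.74 ± 0.03 and 0.49 ± 0.04). MAGEA3 and MAGEA6 thus rose where MAGEA2 and MAGEA2B fell. In the 250-base RefSeq windows, longer than the stretches printed above, MAGEA2B aligns to MAGEA3 and to MAGEA6 over 228 bases at 89.9% identity. For MAGEA2 the aligned window given above is that of MAGEA12, at 93.1% over 245 bases. The part of these sequences in the split was not tested.

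These genes lie together on the X chromosome. RefSeq on GRCh38.p14 orders them as MAGEA3, CSAG2, MAGEA2B, CSAG1, MAGEA12, CSAG4, MAGEA2, CSAG3 and MAGEA6, with 1 unlisted locus after CSAG2. The CSAG genes are other cancer-testis genes; CSAG1, CSAG2 and CSAG4 were chosen after their values were seen, and CSAG copies may share reads. Along this order the changes in MDA-MB-436 were 0.80 ± 0.03, -3.05 ± 0.11, -4.91 ± 0.07, 0.56 ± 0.06, 0.78 ± 0.05, 0.38 ± 0.15, -4.97 ± 0.07, -4.28 ± 0.15 and 0.74 ± 0.03. In SUM159PT they were 0.59 ± 0.04, -3.03 ± 0.16, -5.39 ± 0.12, 0.14 ± 0.07, 0.05 ± 0.05, -0.16 ± 0.20, -5.36 ± 0.14, -4.20 ± 0.14 and 0.49 ± 0.04. Genes that fell therefore stand between genes that rose or did not pass the test: CSAG4 passed in neither line, and CSAG1 and MAGEA12 did not pass in SUM159PT. CSAG3, the neighbour of MAGEA2, stood at 371 and 333 in the parental libraries and 15 and 19.5 in the Tax-R libraries in MDA-MB-436 and at 374 and 347 in the parental libraries and 19.4 and 17.8 in the Tax-R libraries in SUM159PT, and its groups did not overlap in either line. MAGEA12 stood at 498 and 534 in the parental libraries and 881 and 895 in the Tax-R libraries in MDA-MB-436 (adjusted p = 1.38e-07). In SUM159PT, MAGEA12 stood at 772 and 796 in the parental libraries and 795 and 829.7 in the Tax-R libraries (adjusted p = 0.412).

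3 members moved in opposite directions in the lines, and each of them has sequence that no other gene shares. MAGEA11, a coregulator of the androgen receptor, stood at 2.56 and 2.89 in the parental libraries and 408 and 395 in the Tax-R libraries in MDA-MB-436 (6.76 ± 0.18, adjusted p = 3.4e-10). In SUM159PT it stood at 331 and 349 in the parental libraries and 15.3 and 13.9 in the Tax-R libraries (-4.45 ± 0.15, adjusted p = 3.11e-08). MAGEA11 was thus near 3 in one parental line and 331 or more in the other. In Tax-R cells the order of the lines was the other way round. In the SUM159PT mock cells of the third experiment, normalised apart, MAGEA11 stood at 23.8 and 27.8. MAGEC1 stood at 747 and 767 in the parental libraries and 46 and 67.7 in the Tax-R libraries in MDA-MB-436 (-3.74 ± 0.14, adjusted p = 3.6e-09). In SUM159PT, MAGEC1 stood at 84.4 and 85 in the parental libraries and 311 and 294 in the Tax-R libraries (1.82 ± 0.10, adjusted p = 4.97e-07). MAGEA1 stood at 54.5 and 54 in the parental libraries and 148 and 154 in the Tax-R libraries in MDA-MB-436 (1.46 ± 0.12, adjusted p = 1.47e-06). In SUM159PT, MAGEA1 stood at 94.5 and 79.4 in the parental libraries and 15.3 and 10.9 in the Tax-R libraries (-2.65 ± 0.24, adjusted p = 1.61e-05). In all 3 genes the groups of each line were separate; the difference between the lines was not tested, since the tables were normalised apart.

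MAGEC2, next to MAGEC1 on the chromosome, rose slightly in both lines. It stood at 834 and 856 in the parental libraries and 999 and 1037 in the Tax-R libraries in MDA-MB-436 (0.27 ± 0.04, adjusted p = 0.000185). In SUM159PT, MAGEC2 stood at 922 and 942 in the parental libraries and 1067 and 1099 in the Tax-R libraries (0.22 ± 0.04, adjusted p = 0.00214), a call lost there under DESeq2. The CTAG genes rose more: CTAG2 stood at 362 and 361 in the parental libraries and 724 and 699.7 in the Tax-R libraries in MDA-MB-436 (0.97 ± 0.05, adjusted p = 2.82e-08). In SUM159PT, CTAG2 stood at 455 and 451 in the parental libraries and 622 and 653 in the Tax-R libraries (0.49 ± 0.05, adjusted p = 5.04e-05). CTAG1B stood at 153 and 144 in the parental libraries and 386 and 364 in the Tax-R libraries in MDA-MB-436 (1.34 ± 0.07, adjusted p = 6.78e-08). In SUM159PT, CTAG1B stood at 187 and 179 in the parental libraries and 286 and 339.6 in the Tax-R libraries (0.77 ± 0.10, adjusted p = 0.000146). CTAG1A, its copy, moved by 1.29 ± 0.08 and 0.75 ± 0.09. Every Tax-R library of the 3 genes was above every parental one.

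XAGE1B and XAGE1A, among the most abundant members, changed little. XAGE1B stood at 2029 and 2123 in the parental libraries and 2184 and 2122 in the Tax-R libraries in MDA-MB-436 (adjusted p = 0.256). In SUM159PT, XAGE1B stood at 2554 and 2307 in the parental libraries and 2680 and 3066 in the Tax-R libraries (0.24 ± 0.07, adjusted p = 0.0154). XAGE1A stood at 1988 and 2089 in the parental libraries and 2197 and 2071 in the Tax-R libraries in MDA-MB-436 (adjusted p = 0.195). In SUM159PT, XAGE1A stood at 2515 and 2264 in the parental libraries and 2711 and 2977 in the Tax-R libraries (0.25 ± 0.06, adjusted p = 0.0065). The groups overlapped in MDA-MB-436, and both SUM159PT calls were lost with no filter on low values and without SUM159PT parental replicate 2. XAGE2 and MAGEB2 reached 10 in SUM159PT alone among these tables. XAGE2 stood at 174 and 176 in the parental libraries and 23.5 and 24.8 in the Tax-R libraries (-2.81 ± 0.15, adjusted p = 6.47e-07), and MAGEB2, a testis MAGE gene of the short arm of X, at 124 and 89.5 in the parental libraries and 1.02 and 2.97 in the Tax-R libraries (-5.23 ± 0.36, adjusted p = 3.1e-06). Both fell with no overlap. The low MAGEA9 stood at 5.11 and 3.85 in the parental libraries and 13 and 10.3 in the Tax-R libraries in MDA-MB-436. In SUM159PT, MAGEA9 stood at 11.2 and 10.1 in the parental libraries and 4.09 and 3.96 in the Tax-R libraries, and it and MAGEA9B had too few reads to be tested.

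Of the 14 genes outside the families, 3 were called in MDA-MB-436 and 2 in SUM159PT. SSX2IP stood at 1168 and 1229 in the parental libraries and 1309 and 1293 in the Tax-R libraries in MDA-MB-436 (0.12 ± 0.04, adjusted p = 0.0233). In SUM159PT, SSX2IP stood at 1132 and 1155 in the parental libraries and 1137 and 1141 in the Tax-R libraries (adjusted p = 0.923). CTAGE13P stood at 11.1 and 10.6 in the parental libraries and 25 and 27.7 in the Tax-R libraries in MDA-MB-436 (1.21 ± 0.25, adjusted p = 0.00184) and CTAGE9 at 17.9 and 18.3 in the parental libraries and 28 and 32.8 in the Tax-R libraries (0.71 ± 0.23, adjusted p = 0.0197). In SUM159PT, CTAGE4 stood at 61 and 55.9 in the parental libraries and 35.8 and 36.6 in the Tax-R libraries (-0.67 ± 0.18, adjusted p = 0.0133) and CTAGE8 at 51.8 and 52.6 in the parental libraries and 30.7 and 39.6 in the Tax-R libraries (-0.57 ± 0.20, adjusted p = 0.045). None of the 14 was called in both lines. All 4 CTAGE calls were lost under DESeq2, and those of CTAGE9, CTAGE4 and CTAGE8 also without either parental library. CTAGE1, CTAGE10P, CTAGE11P, CTAGE12P, CTAGE15, CTAGE3P, CTAGE5, CTAGE6 and CTAGE7P did not exceed 70.1 in any library of either table and passed in neither.

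Other gene lists were read beside the families. Of all genes, 27.7% rose and 26.9% fell in MDA-MB-436, and 23.5% rose and 22.1% fell in SUM159PT. The lists were not tested against these shares. Of 81 other cancer-testis genes, 25 were tested in MDA-MB-436, where 7 rose and 11 fell, and 31 in SUM159PT, where 4 rose and 17 fell. The largest falls were in CSAG3, SPANXC (-4.26 ± 0.28) and SPANXB1 (-4.04 ± 0.34) in MDA-MB-436 and in NXF2 (-5.70 ± 0.39), its near copy NXF2B (-5.52 ± 0.39) and SPANXD (-4.68 ± 0.41) in SUM159PT. Of X-linked housekeeping genes, measured because the families are X-linked, 11 of 12 rose in MDA-MB-436, with HPRT1 at 0.51 ± 0.05, and 6 of 12 in SUM159PT, where 3 fell. Of 16 tested genes of the DNA methylation machinery, 11 rose and 2 fell in MDA-MB-436 and 9 rose and 4 fell in SUM159PT. HELLS, a chromatin remodeller needed for methylation, rose by 0.62 ± 0.04 in MDA-MB-436, and MBD1, a methyl-CG binding protein, by 0.69 ± 0.05 in SUM159PT. Of 22 chromatin repressors of germline genes, 6 rose and 6 fell in MDA-MB-436 and 4 rose and 4 fell in SUM159PT, and EZH2, a histone methyltransferase of the Polycomb system, fell in both (-0.51 ± 0.04 and -0.58 ± 0.04). Of 7 and 5 tested MAGE genes that are expressed outside the germline, 6 rose and 1 fell in MDA-MB-436 and 0 rose and 1 fell in SUM159PT. Of 15 tested MAGE-binding ubiquitin ligases and partners, 6 rose and 3 fell in MDA-MB-436 and 3 rose and 4 fell in SUM159PT. A list of 12 genes, called the BAF list below, holds SSX2IP and RAB3IP beside genes of the SSX partner complex BAF. From it, 3 rose in MDA-MB-436, with SSX2IP (itself a member) among them, and 2 fell, with RAB3IP among them. The SUM159PT counts were 3 higher and 1 lower, the fall being that of RAB3IP.

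Of the leukocyte markers, PTPRC was lower in the Tax-R cells of both lines. The summed level of PTPRC, CD3E and CD68 was 2049 in parental and 312 in Tax-R MDA-MB-436 cells, and 535 and 6.55 in SUM159PT. Nearly all of it was PTPRC (2047 and 309, 533 and 5.05). CD3E, which marks T cells, did not exceed 1.28 where listed, and CD68, a macrophage marker, did not exceed 13.9. Summed endothelial markers (PECAM1, VWF and CDH5) were 287 and 185 in MDA-MB-436 and 233 and 108 in SUM159PT, and summed germ-cell markers were 29.8 and 30.4, and 34.1 and 21.2. The part of these levels in the members' changes was not tested.

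The second experiment set Tax-R cells with either MYC siRNA against Tax-R cells with the control siRNA. MAGEC2 fell most among the well-measured family members, CTAG2, MAGEA12, MAGEA3 and MAGEA6 fell by less, PAGE5 rose, and XAGE1A and XAGE1B did not pass the test, in both lines. The 2 siRNA groups were averaged against the control. In MDA-MB-436, 2 of 18 tested members rose and 7 fell, and in SUM159PT likewise 2 of 18 rose and 7 fell. These shares lie near or below the background: 34% of all genes rose and 33.7% fell in MDA-MB-436, and 35% and 34.5% in SUM159PT, or 67.7% and 69.5% in either direction. The members' median was -0.25 and -0.22, against -0.01 for all genes in each. Of 13 members tested in both lines, 9 were called in both, 2 of them higher, 7 lower and 0 in opposite directions. Calls in both lines were not counted over all genes. MYC itself went from 2039 ± 27.4 with the control siRNA to 1914 ± 23.1 and 1915 ± 12.6 with the MYC siRNAs in MDA-MB-436 (SD, n = 2), and from 2695 ± 44.9 to 1483 ± 77.7 and 1465 ± 54.5 in SUM159PT.

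Levels in these Tax-R cells matched those of the Tax-R libraries above for some members and not for others, in tables normalised apart. None of the 8 SSX genes, nor PAGE1, PAGE2, PAGE2B, MAGEA2 or MAGEA2B, reached a mean of 10 in any siRNA group of either line. MAGEA11 stood at 93.7 and 95.1 with the control siRNA in MDA-MB-436 and did not reach 10 in SUM159PT. MAGEC1 stood at 36.2 and 32 in MDA-MB-436 and did not reach 10 in SUM159PT, unlike in the SUM159PT Tax-R libraries of the first experiment, where it was 294 or more. CTAG1A and CTAG1B, at a mean of 367 and 375 in the MDA-MB-436 Tax-R libraries of the first experiment, did not reach a mean of 10 in any MDA-MB-436 siRNA group.

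MAGEC2 stood at 769 and 821 with the control siRNA, 465 and 467 with MYC siRNA 1, and 428 and 388 with MYC siRNA 2 in MDA-MB-436 (-0.87 ± 0.06, adjusted p = 9.49e-14). In SUM159PT it stood at 503 and 504 with the control siRNA, 229.9 and 237 with MYC siRNA 1, and 229 and 214 with MYC siRNA 2 (-1.14 ± 0.08, adjusted p = 2.69e-18). Every MYC siRNA library was below every control library, with either siRNA. TRIM28, its ubiquitin-ligase partner, also fell, from 3845 to a mean of 2317 in MDA-MB-436 (-0.73 ± 0.03, limma adjusted p = 3.87e-18) and from 2864 to 1511 in SUM159PT (-0.92 ± 0.04, adjusted p = 4.14e-24).

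**Figure D4:**
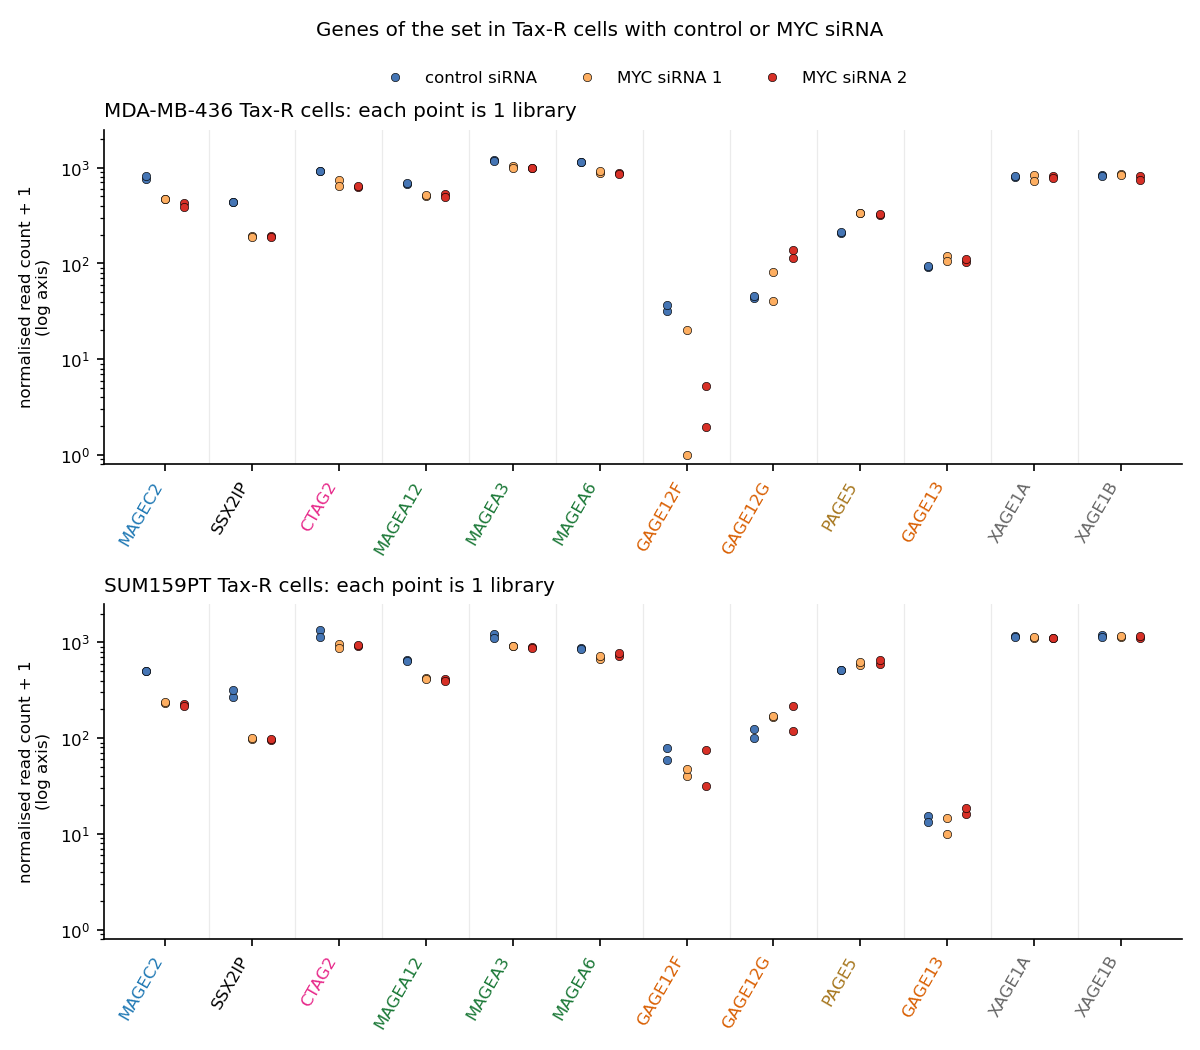
Normalised counts plus 1 on a log axis in each library of Tax-R cells with the control siRNA, MYC siRNA 1 or MYC siRNA 2, for 12 members, MDA-MB-436 above and SUM159PT below; each point is a library. MAGEC2 and SSX2IP lie lower with both MYC siRNAs in both lines, and PAGE5 lies higher.

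CTAG2 stood at 925 and 924 with the control siRNA, 750 and 646 with MYC siRNA 1, and 631 and 649.6 with MYC siRNA 2 in MDA-MB-436 (-0.47 ± 0.05, adjusted p = 7.7e-09). In SUM159PT, CTAG2 stood at 1359 and 1148 with the control siRNA, 956 and 883 with MYC siRNA 1, and 924 and 939.8 with MYC siRNA 2 (-0.43 ± 0.05, adjusted p = 1.45e-09). MAGEA12 stood at 672 and 684 with the control siRNA, 505 and 512 with MYC siRNA 1, and 531 and 495 with MYC siRNA 2 in MDA-MB-436 (-0.41 ± 0.05, adjusted p = 1.13e-07). In SUM159PT, MAGEA12 stood at 649 and 631 with the control siRNA, 422 and 416 with MYC siRNA 1, and 414 and 395 with MYC siRNA 2 (-0.64 ± 0.06, adjusted p = 1.99e-12). For both genes all 4 MYC siRNA libraries lay below both control libraries in each line. MAGEA3 stood at 1206 and 1180 with the control siRNA, 1031 and 979 with MYC siRNA 1, and 986 and 992 with MYC siRNA 2 in MDA-MB-436 (-0.26 ± 0.04, adjusted p = 3.09e-06). In SUM159PT, MAGEA3 stood at 1214 and 1114 with the control siRNA, 907 and 908 with MYC siRNA 1, and 891 and 873 with MYC siRNA 2 (-0.38 ± 0.05, adjusted p = 6.79e-09). MAGEA6 stood at 1157 and 1155 with the control siRNA, 872 and 926 with MYC siRNA 1, and 877 and 860.1 with MYC siRNA 2 in MDA-MB-436 (-0.39 ± 0.04, adjusted p = 5.53e-09). In SUM159PT, MAGEA6 stood at 876 and 852 with the control siRNA, 676 and 721 with MYC siRNA 1, and 713 and 776 with MYC siRNA 2 (-0.26 ± 0.06, adjusted p = 5.34e-05). MAGEA3 and MAGEA6, higher in Tax-R than in parental cells, were thus lower with MYC siRNA, again with no overlap.

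PAGE5 stood at 206 and 213 with the control siRNA, 335 and 339 with MYC siRNA 1, and 319 and 328 with MYC siRNA 2 in MDA-MB-436 (0.66 ± 0.07, adjusted p = 3.31e-09). In SUM159PT, PAGE5 stood at 517 and 509 with the control siRNA, 583 and 623 with MYC siRNA 1, and 590.4 and 649 with MYC siRNA 2 (0.25 ± 0.06, adjusted p = 0.000313), above the controls in every MYC siRNA library. XAGE1B stood at 829 and 811 with the control siRNA, 858 and 834 with MYC siRNA 1, and 818 and 747 with MYC siRNA 2 in MDA-MB-436 (adjusted p = 0.843). In SUM159PT, XAGE1B stood at 1180 and 1127 with the control siRNA, 1147 and 1175 with MYC siRNA 1, and 1100 and 1153 with MYC siRNA 2 (adjusted p = 0.835). XAGE1A stood at 805 and 817 with the control siRNA, 839.8 and 732 with MYC siRNA 1, and 821 and 774 with MYC siRNA 2 in MDA-MB-436 (adjusted p = 0.538). In SUM159PT, XAGE1A stood at 1156 and 1140 with the control siRNA, 1100 and 1140 with MYC siRNA 1, and 1098 and 1123 with MYC siRNA 2 (adjusted p = 0.447). The XAGE1 groups overlapped. MAGEA11 and MAGEA1 did not pass in MDA-MB-436 (-0.04 ± 0.12, adjusted p = 0.808, and -0.42 ± 0.23, adjusted p = 0.113), nor did MAGEC1 (0.31 ± 0.19, adjusted p = 0.156). In SUM159PT, CTAG1A (-0.30 ± 0.29, adjusted p = 0.364), CTAG1B (-0.41 ± 0.30, adjusted p = 0.227), PAGE3 (0.11 ± 0.17, adjusted p = 0.573) and XAGE2 (0.40 ± 0.21, adjusted p = 0.0807) did not pass.

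GAGE genes were low in these tables and scattered between libraries. GAGE12F stood at 30.9 and 35.9 with the control siRNA, 0 and 19 with MYC siRNA 1, and 0.948 and 4.23 with MYC siRNA 2 in MDA-MB-436 (-3.18 ± 0.68, adjusted p = 0.000155). In SUM159PT, GAGE12F stood at 57.7 and 78.6 with the control siRNA, 39.7 and 46.5 with MYC siRNA 1, and 30.8 and 73.9 with MYC siRNA 2 (-0.56 ± 0.21, adjusted p = 0.015). GAGE12G stood at 42.6 and 44.7 with the control siRNA, 80.1 and 39.9 with MYC siRNA 1, and 136 and 114 with MYC siRNA 2 in MDA-MB-436 (0.93 ± 0.18, adjusted p = 6.66e-05). In SUM159PT, GAGE12G stood at 100 and 124 with the control siRNA, 165 and 170.3 with MYC siRNA 1, and 218 and 119 with MYC siRNA 2 (0.56 ± 0.13, adjusted p = 0.000264). The groups overlapped for GAGE12G in both lines and for GAGE12F in SUM159PT. All 4 calls except that of GAGE12G in MDA-MB-436 were lost with no filter on low values and under DESeq2, and that of GAGE12G in MDA-MB-436 was lost with siRNA 1 alone. GAGE13 stood at 90.5 and 94.2 with the control siRNA, 119 and 106 with MYC siRNA 1, and 102 and 111 with MYC siRNA 2 in MDA-MB-436 (adjusted p = 0.0655). In SUM159PT, GAGE13 stood at 14.4 and 12.4 with the control siRNA, 13.6 and 9.11 with MYC siRNA 1, and 15.4 and 17.7 with MYC siRNA 2 (adjusted p = 0.959). GAGE1 stood at 28.8 and 29.1 with the control siRNA, 79.1 and 33.2 with MYC siRNA 1, and 2.85 and 37 with MYC siRNA 2 in MDA-MB-436, GAGE12C at 39.4 and 35 with the control siRNA, 38.1 and 52.2 with MYC siRNA 1, and 54.1 and 39.1 with MYC siRNA 2, and neither passed (adjusted p = 0.652 and 0.2). GAGE12J, too low to be tested, stood at 9.59 and 7.77 with the control siRNA, 7.81 and 0.949 with MYC siRNA 1, and 15.2 and 14.8 with MYC siRNA 2. Averaged over the 11 listed GAGE genes, the change was 0.30 ± 0.22, adjusted p = 0.242 in MDA-MB-436 and 0.21 ± 0.26, adjusted p = 0.481 in SUM159PT, so the family as a whole did not pass in either line.

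SSX2IP, outside the families, fell by more than MAGEC2 in both lines. It stood at 437 and 436 with the control siRNA, 191 and 189.8 with MYC siRNA 1, and 192 and 187 with MYC siRNA 2 in MDA-MB-436 (-1.19 ± 0.07, adjusted p = 3.3e-14). In SUM159PT, SSX2IP stood at 268 and 317 with the control siRNA, 97.2 and 98.4 with MYC siRNA 1, and 95.3 and 96.5 with MYC siRNA 2 (-1.58 ± 0.11, adjusted p = 6.48e-18), with no overlap. CTAGE5, which acts in transport from the endoplasmic reticulum, did not pass in either line (adjusted p = 0.0576 and 0.939).

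The counts of the other lists stand beside high shares of all genes called. Of all genes, 34% rose and 33.7% fell in MDA-MB-436, and 35% rose and 34.5% fell in SUM159PT. The lists were not tested against these shares. Most MAGE genes expressed outside the germline rose with MYC siRNA. Of 7 tested, 6 rose in MDA-MB-436 and 7 in SUM159PT, with 0 lower in either by limma. MAGED1 went from 747 to 1912 (1.35 ± 0.04) and from 604.5 to 1639 (1.44 ± 0.05), and MAGED4, from 8.63 to 43.5 (2.21 ± 0.23) and from 7.91 to 48.9 (2.50 ± 0.24). Among other cancer-testis genes, 3 of 14 rose and 5 fell in MDA-MB-436 and 4 of 15 rose and 6 fell in SUM159PT, and ACTL8, an actin-like testis protein, fell by -1.55 ± 0.16 and -1.68 ± 0.31. Of the 16 methylation genes, 7 rose and 6 fell and 6 rose and 8 fell; UHRF1, which brings DNMT1 to replicating DNA, fell by -0.75 ± 0.05 and -1.86 ± 0.09, and DNMT3A rose by 0.77 ± 0.11 and 1.08 ± 0.09. Of the 22 chromatin repressors, 1 rose and 10 fell in MDA-MB-436 and 3 rose and 10 fell in SUM159PT, RNF2 among them (-0.85 ± 0.11 and -1.17 ± 0.13). Of the 15 MAGE-binding ligases and partners, 2 rose and 10 fell, and 2 rose and 9 fell. Of the 12 genes of the BAF list, 3 rose and 9 fell, and 2 rose and 9 fell. SSX2IP was among the falls in both lines, and SMARCC1 changed by -0.96 ± 0.04 and -1.26 ± 0.06. Of the 12 X-linked housekeeping genes, 7 rose and 4 fell, and 4 rose and 6 fell. Summed leukocyte markers were 8.68 with the control siRNA and 9.21 and 9.67 with the MYC siRNAs in MDA-MB-436, and 9.98, 20.3 and 19.2 in SUM159PT. Summed germ-cell markers, nearly all SYCP3, were 67.1 with the control siRNA and 36.2 and 38.3 with the MYC siRNAs in MDA-MB-436, and 76.7, 44.9 and 36.2 in SUM159PT. Summed endothelial markers, mostly PECAM1, were 20.9, 43.4 and 55.2 in MDA-MB-436, and 61, 148.5 and 153 in SUM159PT. The part of these levels in the members' changes was not tested.

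The third experiment set C1 and C2, averaged, against mock cells. SSX3 and SSX2IP rose and GAGE1, CTAG2, MAGEA6, MAGEA12 and GAGE2A fell in both lines, while MAGEC2 and SSX2B fell in SUM159PT. In MDA-MB-436, 4 of 32 tested members rose and 10 fell, against 24.8% and 23% of all genes (47.8% in either direction), and DESeq2 called 4 higher and 2 lower. In MDA-MB-436 the calls of CTAG2, GAGE2A, MAGEA6 and MAGEA12 were lost under DESeq2 and with C1 alone, and those of CTAG2, GAGE2A and MAGEA12 also with no filter on low values. In SUM159PT, 4 of 29 rose and 13 fell, against 19.3% and 19.8% (39.1%), and 10 members were called in all without mock replicate 1. With C1 alone 6 rose and 5 fell there, and with C2 alone 4 rose and 15 fell. The members' median was -0.05 against 0.01 for all genes in MDA-MB-436, and -0.23 against 0 in SUM159PT. Of 24 members tested in both lines, 9 were called in both: 2 higher, 5 lower and 2 in opposite directions. Here too, no such count was made over all genes. TMEM173 went from 170.2 ± 17.4 to 48.4 ± 9.47 in C1 and 45.0 ± 1.45 in C2 in MDA-MB-436 (SD, n = 2), and from 245 ± 22.6 to 105 ± 13.7 and 96.8 ± 5.76 in SUM159PT.

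SSX genes did not move together. SSX3 stood at 2.93 and 6.46 in mock cells, 25.1 and 26.1 in C1, and 32 and 31.7 in C2 in MDA-MB-436 (2.45 ± 0.30, adjusted p = 1.09e-07). In SUM159PT it stood at 0 and 1.92 in mock cells, 11.4 and 8.39 in C1, and 23.7 and 15.4 in C2 (3.11 ± 0.46, adjusted p = 5.41e-07), 10.3-fold higher in C1 (2.50 to 90.9, counting error only) and 20.4-fold in C2 (5.26 to 174), from 2 reads in the mock libraries. Its groups did not overlap in either line. SSX2B stood at 49.6 and 46.1 in mock cells, 0 and 2.10 in C1, and 0 and 0 in C2 in SUM159PT (-5.20 ± 0.56, adjusted p = 4.08e-10), 45.6-fold lower in C1 (12.3 to 382) and at least 31-fold lower in C2. Its copy SSX2, too low on average to be tested there, stood at 24.8 and 22.1 in mock cells, 0 and 1.05 in C1, and 0 and 0 in C2, 44.7-fold lower in C1 (7.66 to 1800) and at least 15.2-fold lower in C2. In MDA-MB-436 neither was lost: SSX2 stood at 231 and 224 in mock cells, 238 and 321 in C1, and 343 and 350 in C2 (0.44 ± 0.09, adjusted p = 0.000169), and SSX2B at 266 and 256 in mock cells, 302 and 258 in C1, and 273 and 336 in C2 (adjusted p = 0.139). Averaged over the pair, the change was 0.30 ± 0.08, adjusted p = 0.00197 in MDA-MB-436 and -4.85 ± 0.59, adjusted p = 4.63e-09 in SUM159PT. SSX1 stood at 78.1 and 54.5 in mock cells, 26.1 and 21.9 in C1, and 25 and 19.4 in C2 in MDA-MB-436 (-1.47 ± 0.22, adjusted p = 2.47e-06), a fall with no overlap, and was not tested in SUM159PT. SSX4 and SSX4B did not exceed 16.6 in any MDA-MB-436 library and did not pass (adjusted p = 0.443 and 0.861).

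MAGEC2 fell in SUM159PT, where it stood at 662 and 629.7 in mock cells, 168 and 171 in C1, and 151 and 147 in C2 (-2.01 ± 0.08, adjusted p = 4.66e-24). All 4 sgRNA libraries lay far below both mock libraries. In MDA-MB-436 it stood at 603 and 576 in mock cells, 512 and 555 in C1, and 568 and 529 in C2 (adjusted p = 0.0886), where the difference did not pass. MAGEC1, its neighbour, stood at 264 and 258 in mock cells, 212 and 228 in C1, and 225 and 226 in C2 in MDA-MB-436 (-0.23 ± 0.08, adjusted p = 0.0251); leaving out either mock library ended that call. It did not reach 10 in SUM159PT. PAGE2, not tested in SUM159PT, stood at 29.6 and 21.1 in mock cells, 1.90 and 6.29 in C1, and 0 and 1.03 in C2, 49.2-fold lower in C2 than in mock cells (8.46 to 1980).

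**Figure D5:**
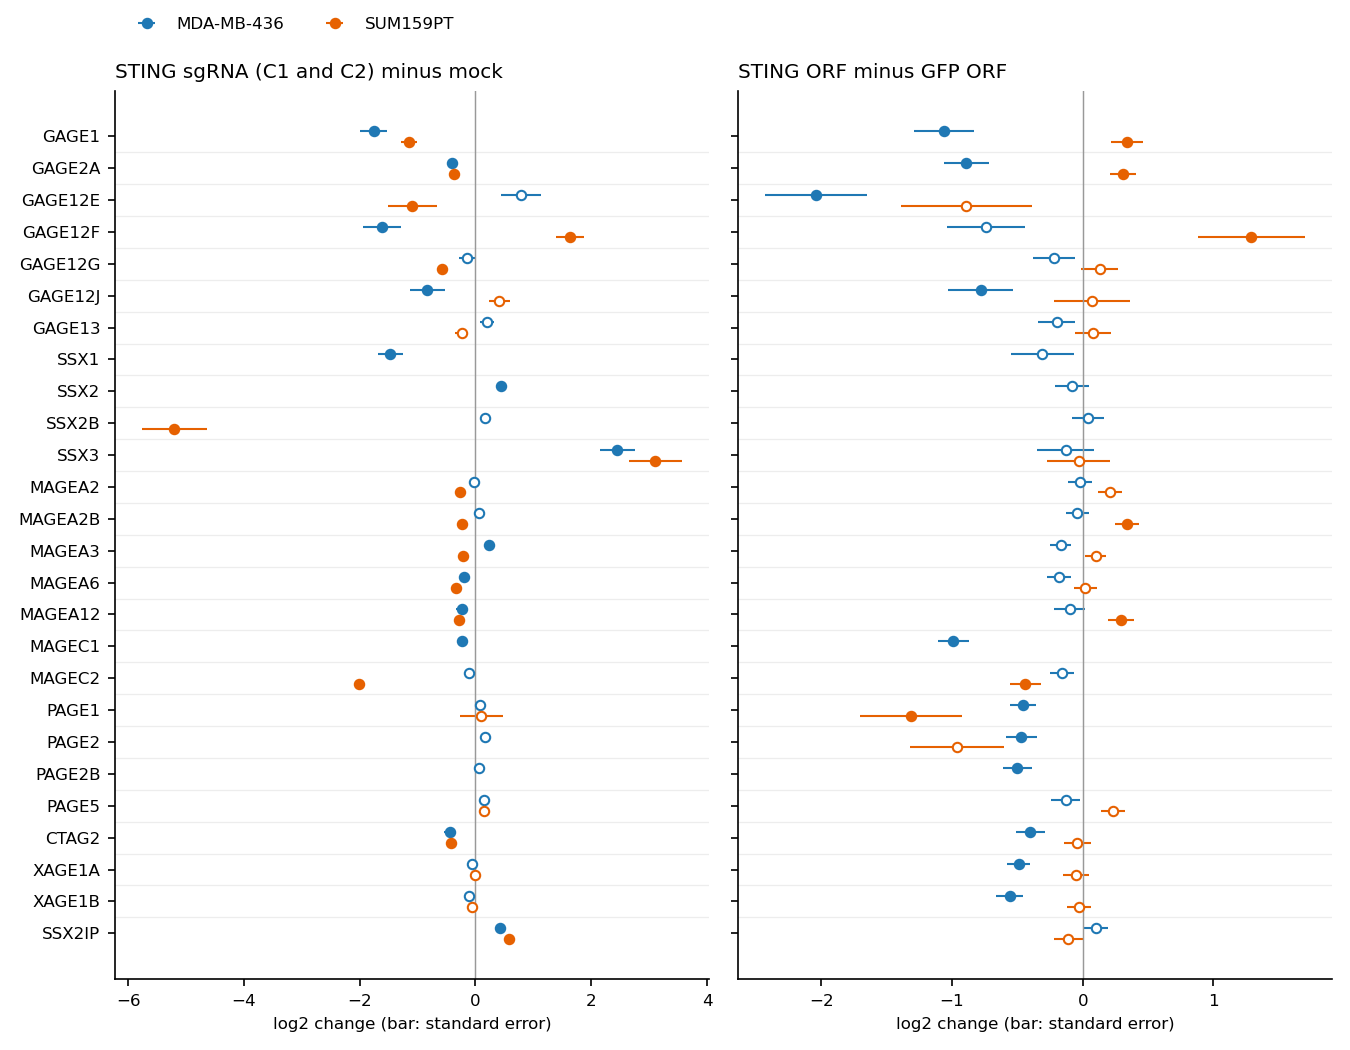
Log2 change (horizontal axis, bars are standard errors) of members with the STING sgRNA against mock cells, left, and with the STING ORF against the GFP ORF, right; colours mark the cell lines, filled points passed the test, and a missing point was not tested. SSX3 lies highest with the STING sgRNA in both lines (2.45 and 3.11), and SSX2B (-5.20) and MAGEC2 (-2.01) lie lowest in SUM159PT.

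The abundant MAGEA genes moved by 0.34 or less in size. MAGEA3 stood at 618 and 615 in mock cells, 722 and 734 in C1, and 762 and 676 in C2 in MDA-MB-436 (0.23 ± 0.06, adjusted p = 0.00121) and at 1033 and 951 in mock cells, 912 and 929.8 in C1, and 758 and 827 in C2 in SUM159PT (-0.21 ± 0.05, adjusted p = 0.000809), opposite directions. MAGEA6 stood at 588 and 595 in mock cells, 562 and 503 in C1, and 494 and 506 in C2 in MDA-MB-436 (-0.20 ± 0.06, adjusted p = 0.00767) and at 764 and 774 in mock cells, 662 and 681 in C1, and 541 and 560.2 in C2 in SUM159PT (-0.34 ± 0.05, adjusted p = 2.83e-06). The MDA-MB-436 call of MAGEA6 was lost without either mock library. MAGEA2 stood at 496 and 503 in mock cells, 506 and 486 in C1, and 507 and 454 in C2 in MDA-MB-436 (adjusted p = 0.689) and at 571 and 487 in mock cells, 462 and 440.3 in C1, and 432 and 419 in C2 in SUM159PT (-0.27 ± 0.07, adjusted p = 0.00112). MAGEA2B stood at 488 and 535 in mock cells, 535 and 524 in C1, and 530 and 549.5 in C2 in MDA-MB-436 (adjusted p = 0.4) and at 594 and 514 in mock cells, 488 and 480.1 in C1, and 451 and 472 in C2 in SUM159PT (-0.23 ± 0.06, adjusted p = 0.0041). MAGEA12 changed by -0.24 ± 0.09 and -0.28 ± 0.07. The SUM159PT calls of MAGEA2, MAGEA2B, MAGEA3 and MAGEA12 were lost without SUM159PT mock replicate 1.

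CTAG2 fell in both lines. It stood at 428 and 386 in mock cells, 328 and 343 in C1, and 327 and 219 in C2 in MDA-MB-436 (-0.44 ± 0.10, adjusted p = 0.000439) and at 1001 and 865 in mock cells, 846 and 763 in C1, and 629 and 562 in C2 in SUM159PT (-0.43 ± 0.06, adjusted p = 1.19e-07), with both mock libraries above all sgRNA libraries. CTAG1A stood at 33.4 and 31.7 in mock cells, 17.1 and 34.6 in C1, and 20.6 and 12.4 in C2 in SUM159PT (-0.69 ± 0.27, adjusted p = 0.0381), where 1 C1 library was above the mock libraries and leaving out either mock library ended the call; CTAG1B did not pass (adjusted p = 0.0529). XAGE1B stood at 721 and 756 in mock cells, 644 and 816 in C1, and 657 and 617 in C2 in MDA-MB-436 and at 1017 and 922 in mock cells, 939.5 and 1022 in C1, and 885 and 876 in C2 in SUM159PT (adjusted p = 0.136 and 0.378). XAGE1A stood at 667 and 707 in mock cells, 626 and 744 in C1, and 642 and 622 in C2 in MDA-MB-436 and at 909 and 881 in mock cells, 983 and 1018 in C1, and 834 and 778 in C2 in SUM159PT (adjusted p = 0.411 and 0.953). The XAGE1 genes passed in neither line, and their groups overlapped. XAGE2 in SUM159PT and PAGE5 and, in MDA-MB-436, PAGE1, PAGE2 and PAGE2B did not pass either.

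GAGE1 stood at 175 and 157 in mock cells, 76.2 and 24 in C1, and 43 and 68.6 in C2 in MDA-MB-436 (-1.76 ± 0.24, adjusted p = 7.3e-07) and at 234 and 249.6 in mock cells, 252 and 160.4 in C1, and 46.3 and 72.1 in C2 in SUM159PT (-1.15 ± 0.14, adjusted p = 3.12e-09). In MDA-MB-436 the groups were separate, and in SUM159PT the fall lay in C2, so that with C1 alone the call was lost. GAGE12F stood at 56.6 and 74.8 in mock cells, 32.1 and 17.7 in C1, and 37 and 8.19 in C2 in MDA-MB-436 (-1.62 ± 0.33, adjusted p = 0.000174) and at 21 and 15.4 in mock cells, 83.5 and 29.4 in C1, and 76.1 and 60.8 in C2 in SUM159PT (1.64 ± 0.24, adjusted p = 5.41e-07), opposite directions with separate groups. GAGE12G stood at 274 and 256 in mock cells, 286 and 249 in C1, and 303 and 156 in C2 in MDA-MB-436 (adjusted p = 0.429) and at 582 and 490.5 in mock cells, 496 and 422 in C1, and 334 and 229.6 in C2 in SUM159PT (-0.58 ± 0.09, adjusted p = 8.79e-07).

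GAGE13 stood at 154 and 188 in mock cells, 170.4 and 184 in C1, and 272 and 175 in C2 in MDA-MB-436 and at 239 and 265 in mock cells, 172 and 263 in C1, and 239 and 192 in C2 in SUM159PT and passed in neither (adjusted p = 0.166 and 0.0737). GAGE12C stood at 8.78 and 60.9 in mock cells, 9.02 and 4.17 in C1, and 13 and 9.21 in C2 in MDA-MB-436 (-1.41 ± 0.45, adjusted p = 0.0116), where the mock libraries differ from each other by as much as the groups and leaving out MDA-MB-436 mock replicate 2 ended the call. In SUM159PT it stood at 26.7 and 13.4 in mock cells, 14.2 and 16.8 in C1, and 10.3 and 16.5 in C2 (adjusted p = 0.336). GAGE12J stood at 98.6 and 28.6 in mock cells, 33.1 and 45.9 in C1, and 32 and 15.3 in C2 in MDA-MB-436 (-0.83 ± 0.30, adjusted p = 0.025) and at 42.9 and 73.9 in mock cells, 125 and 109 in C1, and 37 and 62.8 in C2 in SUM159PT (adjusted p = 0.0687); without MDA-MB-436 mock replicate 1 its change was 0.04. In SUM159PT, GAGE2E rose (1.32 ± 0.32, adjusted p = 0.000996), from 4.77 and 13.4 in mock cells to 16.1 and 23.1 in C1 and 27.8 and 21.6 in C2, a call lost without mock replicate 1. GAGE12E fell there (-1.09 ± 0.42, adjusted p = 0.0343), from 41.0 and 7.68 to 17.1, 8.39, 5.14 and 5.15, and without mock replicate 1 its change was 0.04. GAGE2A, among the more abundant copies, changed by -0.40 ± 0.10 and -0.37 ± 0.07. Averaged over the listed GAGE genes, the change was -0.34 ± 0.13, adjusted p = 0.0344 in MDA-MB-436 (12 genes) and -0.38 ± 0.11, adjusted p = 0.00578 in SUM159PT (11 genes).

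SSX2IP rose in both lines. In MDA-MB-436 it stood at 453 and 469.8 in mock cells, 611 and 580.1 in C1, and 638 and 642 in C2 (0.42 ± 0.06, adjusted p = 6.76e-07). In SUM159PT it stood at 289 and 344 in mock cells, 448 and 482 in C1, and 451 and 513 in C2 (0.58 ± 0.07, adjusted p = 9.84e-09). The groups did not overlap, and the direction was opposite to that with MYC siRNA. CTAGE genes did not pass in either line. Summed leukocyte markers were 1029 in mock cells, 1232 in C1 and 1296 in C2 in MDA-MB-436, and 118, 11.9 and 9.26 in SUM159PT, of which PTPRC made 104, 3.0 and 2.06. Summed endothelial markers were 74.6, 93.6 and 115 in MDA-MB-436 and 27.3, 15.9 and 17 in SUM159PT, and summed germ-cell markers 81, 81.2 and 101 and 88.5, 82.2 and 87. The part of these levels in the changes was not tested.

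The other lists stand beside 24.8% of all genes higher and 23% lower in MDA-MB-436, and 19.3% and 19.8% in SUM159PT. Of the other lists, 2 of 16 tested cancer-testis genes rose and 3 fell in MDA-MB-436 and 4 of 16 rose and 2 fell in SUM159PT. KDM5B, a histone demethylase once listed among testis antigens, rose by 0.96 ± 0.07 in MDA-MB-436, and NXF2, a germ-cell mRNA export factor with a near copy, fell by -1.71 ± 0.39 in SUM159PT. Of 16 methylation genes, 5 rose and 4 fell, and 5 rose and 2 fell. Of 22 chromatin repressors, 6 rose and 5 fell, and 5 rose and 4 fell, and TRIM28 fell in both lines (-0.35 ± 0.03 and -0.36 ± 0.04). Of 15 MAGE-binding ligases and partners, 3 rose and 3 fell, and 2 rose and 1 fell. Of the 12 genes of the BAF list, 3 rose, SSX2IP among them, and 2 fell in each line. Of 12 X-linked housekeeping genes, 3 rose and 4 fell, and 6 rose and 2 fell. Of 6 and 5 MAGE genes outside the germline, 0 rose and 2 fell, and 1 rose and 0 fell, by limma.

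The sgRNA groups were also compared with each other. In MDA-MB-436, C2 minus C1 gave 0 of 32 members higher and 2 lower by limma, against 0.131% and 0.666% of all genes (0.797% in either direction); at an unadjusted p under 0.05 there were 2 higher and 5 lower. By edgeR 0 were higher and 2 lower, and by DESeq2 0 and 0. The 2 were GAGE12E (36.1 and 56.3 in C1, 18 and 5.12 in C2, -2.10 ± 0.39, adjusted p = 0.00747) and GAGE2A (457 and 404 in C1, 221.0 and 344 in C2, -0.64 ± 0.12, adjusted p = 0.00679). Members called numbered 6 without C1 replicate 1, 4 without C2 replicate 1 and 1 without C2 replicate 2. With copies averaged, 0 of 19 units passed by limma, and 3 had an unadjusted p under 0.05.

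In SUM159PT, 0 of 29 members were higher and 9 lower in C2 by limma, against 8.53% and 11.4% of all genes (19.9% in either direction), with 0 higher and 12 lower at an unadjusted p under 0.05; edgeR gave 0 and 9, and DESeq2 0 and 6. The members' median was -0.26, against 0 for all genes. GAGE1 went from 252 and 160.4 in C1 to 46.3 and 72.1 in C2 (-1.78 ± 0.16, adjusted p = 6.78e-11), and GAGE12J from 125 and 109 to 37 and 62.8 (-1.26 ± 0.21, adjusted p = 2.59e-05). GAGE12G changed by -0.72 ± 0.10, adjusted p = 1.9e-06, and CTAG2 by -0.43 ± 0.07, adjusted p = 1.02e-05. For each of the 4 genes both C2 libraries were below both C1 libraries. The same held for 17 of 34 reported members, with 3 the other way round and 14 overlapping. It was not counted over all genes. GAGE2A (-0.39 ± 0.08), MAGEA12 (-0.35 ± 0.08), XAGE1A (-0.31 ± 0.06), MAGEA6 (-0.29 ± 0.06) and MAGEA3 (-0.22 ± 0.06) were the other 5. MAGEC2, SSX2B and SSX3, the largest changes against mock cells, did not pass between C1 and C2 (adjusted p = 0.164, 0.404 and 0.241). With no filter on low values, no member passed in either line by limma, and 3 and 12 had an unadjusted p under 0.05. Among the other lists, 0 genes rose in C2 in MDA-MB-436 by limma, and 1 chromatin repressor, 1 MAGE partner (both TRIM28, which is on both lists) and 2 X-linked housekeeping genes fell. In SUM159PT, 0 of 16 other cancer-testis genes rose and 1 fell, 3 of 16 methylation genes rose and 2 fell, and 4 of 22 repressors rose and 1 fell. There, 2 of 15 MAGE partners rose and 2 fell, and 2 of 12 genes of the BAF list rose and 0 fell. Among 12 X-linked housekeeping genes 4 rose and 3 fell.

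The fourth experiment set STING sgRNA cells with a STING ORF against those with a GFP ORF. In MDA-MB-436 the members that passed were all lower with the STING ORF, among them MAGEC1, 3 PAGE genes and XAGE1A and XAGE1B. In SUM159PT, 5 were higher, in the GAGE and MAGEA families, and PAGE1 and MAGEC2 were lower. In MDA-MB-436, 0 of 32 tested members rose and 11 fell, against 9.2% and 11.9% of all genes (21.1% in either direction), with 0 and 14 at an unadjusted p under 0.05 by limma, 0 and 11 by edgeR and 0 and 6 by DESeq2. In SUM159PT, 5 of 30 rose and 2 fell, against 13.2% and 12.8% (26%); DESeq2 called 0, with 3 higher and 1 lower at an unadjusted p under 0.05. The members' median was -0.31 in MDA-MB-436 and 0.04 in SUM159PT, against -0.01 and 0.01 for all genes. TMEM173 went from 26.6 ± 7.88 to 597 ± 24.4 in MDA-MB-436 and from 73.2 ± 11.1 to 1527 ± 102 in SUM159PT (SD, n = 2).

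MAGEC1 stood at 287 and 269.9 with the GFP ORF and 149.8 and 130.3 with the STING ORF in MDA-MB-436 (-0.99 ± 0.12, adjusted p = 3.77e-07), with no overlap, and it alone of the 11 kept its call with no filter on low values. XAGE1B stood at 786 and 619.9 with the GFP ORF and 473 and 472 with the STING ORF (-0.56 ± 0.10, adjusted p = 7.05e-05) and XAGE1A at 709.5 and 603 with the GFP ORF and 471 and 462 with the STING ORF (-0.49 ± 0.09, adjusted p = 0.000253). PAGE1 stood at 381 and 365 with the GFP ORF and 267 and 276 with the STING ORF (-0.46 ± 0.10, adjusted p = 0.00162). PAGE2 (-0.47 ± 0.12) and PAGE2B (-0.50 ± 0.11) moved likewise. Both STING ORF libraries were below both GFP ORF libraries for all of these genes. CTAG2 stood at 337 and 313 with the GFP ORF and 248 and 243 with the STING ORF (-0.40 ± 0.11, adjusted p = 0.00719).

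GAGE12E stood at 81.7 and 21 with the GFP ORF and 11.2 and 7.78 with the STING ORF (-2.04 ± 0.39, adjusted p = 0.000277) and GAGE1 at 69.8 and 122 with the GFP ORF and 54.8 and 35 with the STING ORF (-1.06 ± 0.23, adjusted p = 0.00101). GAGE2A stood at 918 and 414 with the GFP ORF and 315 and 349 with the STING ORF (-0.89 ± 0.17, adjusted p = 0.000233) and GAGE12J at 82.6 and 57.2 with the GFP ORF and 27.9 and 56.4 with the STING ORF (-0.78 ± 0.25, adjusted p = 0.0235). GAGE12E, GAGE2A and GAGE12J lost their calls without MDA-MB-436 GFP ORF replicate 1, and GAGE1 without GFP ORF replicate 2. GAGE12F stood at 40.4 and 52.5 with the GFP ORF and 16.8 and 43.7 with the STING ORF, GAGE12G at 177 and 311 with the GFP ORF and 237 and 171 with the STING ORF, GAGE13 at 158 and 165 with the GFP ORF and 161 and 122 with the STING ORF and GAGE12C at 25.7 and 24.8 with the GFP ORF and 7.83 and 49.6 with the STING ORF, and these 4 did not pass (adjusted p = 0.0734, 0.359, 0.341 and 0.65). Averaged over the 11 listed GAGE genes, the change was -0.68 ± 0.17, adjusted p = 0.00319. MAGEA3 stood at 938 and 885 with the GFP ORF and 792 and 828 with the STING ORF, MAGEA6 at 684 and 565 with the GFP ORF and 574 and 521 with the STING ORF, MAGEA2 at 495 and 507 with the GFP ORF and 499 and 491 with the STING ORF and MAGEA2B at 558 and 548 with the GFP ORF and 540.1 and 539.5 with the STING ORF, and none of them passed (adjusted p = 0.135, 0.168, 0.911 and 0.821). No SSX gene passed, SSX3 and SSX2 included (adjusted p = 0.728 and 0.704).

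In SUM159PT, GAGE12F stood at 26.2 and 6.60 with the GFP ORF and 51.9 and 22.4 with the STING ORF (1.29 ± 0.41, adjusted p = 0.0213), with overlap between the groups. MAGEA2B stood at 485 and 468 with the GFP ORF and 626 and 577 with the STING ORF (0.34 ± 0.09, adjusted p = 0.01), GAGE1 at 207 and 203 with the GFP ORF and 241 and 280.5 with the STING ORF (0.34 ± 0.12, adjusted p = 0.0377), GAGE2A at 474 and 545 with the GFP ORF and 626 and 638 with the STING ORF (0.31 ± 0.10, adjusted p = 0.0169) and MAGEA12 at 448 and 406 with the GFP ORF and 534 and 509 with the STING ORF (0.29 ± 0.10, adjusted p = 0.0309). In these 4 the STING ORF libraries were above the GFP ORF libraries. PAGE1 stood at 17.4 and 18.9 with the GFP ORF and 5.99 and 7.47 with the STING ORF (-1.31 ± 0.39, adjusted p = 0.0142) and MAGEC2 at 237 and 222 with the GFP ORF and 167 and 171 with the STING ORF (-0.44 ± 0.12, adjusted p = 0.00934), both lower with no overlap. Each of the 7 calls was lost with no filter on low values and without at least 1 of the 4 libraries, GFP ORF replicate 2 in each case. Members called numbered 2 and 1 without GFP ORF replicate 1 or 2, and 12 and 11 without STING ORF replicate 1 or 2.

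The other abundant members did not pass in SUM159PT. XAGE1B stood at 1001 and 871 with the GFP ORF and 992 and 847 with the STING ORF and XAGE1A at 969.5 and 863 with the GFP ORF and 995 and 779.6 with the STING ORF (adjusted p = 0.862 and 0.724). MAGEA3 stood at 895 and 941 with the GFP ORF and 1019 and 952 with the STING ORF, MAGEA6 at 707 and 670.4 with the GFP ORF and 679 and 719 with the STING ORF and MAGEA2 at 486 and 489 with the GFP ORF and 568 and 561 with the STING ORF (adjusted p = 0.389, 0.892 and 0.1). GAGE12G stood at 542 and 403 with the GFP ORF and 639 and 407 with the STING ORF, GAGE13 at 426 and 263 with the GFP ORF and 347 and 363 with the STING ORF, GAGE12J at 112 and 64.1 with the GFP ORF and 154 and 51.2 with the STING ORF and GAGE12C at 24.4 and 14.1 with the GFP ORF and 24 and 13.9 with the STING ORF (adjusted p = 0.549, 0.707, 0.887 and 0.966). GAGE10 had 68.0 in 1 GFP ORF library and 0 in the other. The mean over 12 listed GAGE genes changed by 0.16 ± 0.14, adjusted p = 0.427. SSX2IP did not pass in either line (adjusted p = 0.495 and 0.476). Summed leukocyte markers were 608 with the GFP ORF and 458 with the STING ORF in MDA-MB-436, and 12.7 and 11.2 in SUM159PT. Summed endothelial markers were 45 and 56.2, and 15.4 and 13.3, and summed germ-cell markers 93.1 and 80.2, and 72.6 and 82.8. Their part was not tested.

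Of the other lists, 3 of 18 tested cancer-testis genes rose and 2 fell in MDA-MB-436, with IL13RA2, a decoy receptor for interleukin-13, at 0.59 ± 0.08, and 1 of 15 rose and 0 fell in SUM159PT by limma. Beside these lists, 9.2% of all genes were higher and 11.9% lower in MDA-MB-436, and 13.2% and 12.8% in SUM159PT. Of 6 and 5 MAGE genes expressed outside the germline, 0 rose and 3 fell, and 0 rose and 2 fell. MAGEF1 changed by -0.92 ± 0.14 in MDA-MB-436. Of 16 methylation genes, 3 rose and 4 fell, and 2 rose and 3 fell. Of 22 chromatin repressors, 1 rose and 3 fell, and 1 rose and 4 fell. Of 15 MAGE-binding ligases and partners, 0 rose and 1 fell by limma, and 4 rose and 1 fell. Of the 12 genes of the BAF list, 0 rose and 3 fell, and 0 rose and 0 fell. Of 12 X-linked housekeeping genes, 2 rose and 4 fell, and 3 rose and 1 fell.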

How the data were processed

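The 8 human tables of 2 cell lines were used; the mouse tables of the series were not used here. The deposited values (signal) are reads per gene, scaled by the authors with a single factor for each library of a table. HISAT2, featureCounts, StringTie and DESeq2 appear in the submitters' processing notes. The build and annotation they used are not given in the sources used here. In every library 100% of values were whole multiples of the value of 1 read (tolerance 0.05 reads), so whole reads and depths were recovered. Depth was 5663610 to 13191675 reads, and intervals from reads cover counting error only. The Maxwell RSC simplyRNA Cells Kit served for RNA extraction, per the labels' protocols.

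Each table was fitted alone with limma 3.58.1 in R 4.3.3 (trended variance) on log2(value + 1) of genes whose mean over the table reached 10, with Benjamini-Hochberg adjustment over all genes and a two-sided threshold of 0.05. Fold changes on this scale understate changes of low genes. The 2 MYC siRNA groups, and likewise C1 and C2, were averaged against their control. Alternatives were edgeR 4.0.16 and DESeq2 1.42.0 on the recovered reads, no filter, a filter on the highest group mean and a pseudocount of 4. Others were quantile normalisation, a replicate block, each siRNA or sgRNA group alone and a 2-fold threshold. Omission of SSX2IP and the CTAGE genes and omission of each library were alternatives too. Averaging near-identical copies was added after the data were seen. The fitting code was tested on simulated data.

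Members, lists and tests were chosen with earlier results of these data known. Every member with a group mean of at least 10 is named. Values in every library are given for the 12 with the highest group mean and, in each comparison, for up to 6 called members with the largest change in each direction; other lists are named by up to 4 genes each. Lists covered other cancer-testis genes, MAGE genes expressed outside the germline, DNA methylation machinery, chromatin repressors, MAGE partners and X-linked housekeeping genes. A further list joined SSX2IP and RAB3IP with BAF genes. Markers were epithelial, mesenchymal, germ-cell, leukocyte and endothelial. Shared sequence was counted in GENCODE v29 transcripts, and promoter windows came from RefSeq.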

Additional observations from a re-analysis of the deposited data

Results flagged for a closer look

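7 members were called in opposite directions in the 2 lines under the same contrast, with every library of each line on its own side. How many genes in all did so was not counted. The difference between the lines was not tested, since their tables were normalised apart. In Tax-R cells these members were MAGEA1 (1.46 in MDA-MB-436 and -2.65 in SUM159PT, log2), MAGEA11 (6.76 and -4.45) and MAGEC1 (-3.74 and 1.82). With the STING sgRNA they were GAGE12F (-1.62 and 1.64) and MAGEA3 (0.23 and -0.21), and with the STING ORF GAGE1 (-1.06 and 0.34) and GAGE2A (-0.89 and 0.31). The SUM159PT call of MAGEA3 was lost without mock replicate 1. Those of GAGE1 and GAGE2A were lost there under DESeq2, with no filter on low values and without GFP ORF replicate 2. Their MDA-MB-436 calls were lost with no filter, and without GFP ORF replicate 2 (GAGE1) or replicate 1 (GAGE2A). MAGEA1, MAGEA11 and MAGEC1 have 100% of their 75-base stretches to themselves, whereas this share is 87.9% for GAGE1, 57.9% for MAGEA3, 29.7% for GAGE2A and 4.1% for GAGE12F.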

How the results depend on the processing

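With 2 libraries a group, 1 library can decide a call, and members with few reads in both groups have wide errors. Over 374 called genes, counted per comparison and including those of the other lists, 4627 of 5122 alternatives kept direction and call, 493 lost the call and 2 reversed: GAGE12J in MDA-MB-436 with the STING sgRNA without mock replicate 1 (0.04, limma adjusted p = 0.942; -1.71 without mock replicate 2) and GAGE12E in SUM159PT without mock replicate 1 (0.04, adjusted p = 0.963; -2.23 without mock replicate 2). Of 161 recounts of called members, 129 lay within 1.5 times the main count. With near-identical copies averaged, which leaves fewer units to test, 22 units were called in MDA-MB-436 Tax-R cells (10 higher, 12 lower, of 32), 22 in SUM159PT Tax-R cells (8 and 14 of 34), 11 with the STING sgRNA in SUM159PT, 0 in C2 against C1 in MDA-MB-436 (3 at an unadjusted p under 0.05 by limma), and 7 and 4 with the STING ORF in MDA-MB-436 and SUM159PT. At a 2-fold threshold the counts in MDA-MB-436 and SUM159PT were 2 and 2 with MYC siRNA, 5 and 7 with the STING sgRNA, 1 and 2 for C2 against C1, and 2 and 2 with the STING ORF. With no filter on low values, which tests more genes, they were 0 and 0 for C2 against C1 (3 and 12 unadjusted by limma) and 1 and 0 with the STING ORF (13 unadjusted in SUM159PT). DESeq2 gave 6 with the STING sgRNA, 0 for C2 against C1 (3 unadjusted) and 6 with the STING ORF in MDA-MB-436, and 0 with the STING ORF in SUM159PT (4 unadjusted). C1 alone gave 11 in SUM159PT with the STING sgRNA (6 higher, 5 lower), and C2 alone gave 19 (4 and 15). For these settings the cause was not tested beyond the number of genes or units.

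Leaving out 1 library at a time, the counts in MDA-MB-436 and SUM159PT ran from 37 to 39 and from 36 to 41 in Tax-R cells, from 9 to 10 and from 8 to 9 with MYC siRNA, from 11 to 17 and from 10 to 19 with the STING sgRNA, from 1 to 6 and from 8 to 11 for C2 against C1, and from 8 to 12 and from 1 to 12 with the STING ORF. The lowest STING sgRNA count in SUM159PT came without mock replicate 1. For C2 against C1 in MDA-MB-436 the count was 6 without C1 replicate 1, 4 without C2 replicate 1 and 1 without C2 replicate 2. With the STING ORF in SUM159PT it was 2 and 1 without GFP ORF replicates 1 and 2, and 12 and 11 without STING ORF replicates 1 and 2. Replicate numbers did not pair the samples (correlations of deviations -0.05 to 0.11); with the replicate number as a block the STING ORF count in SUM159PT was 13, and the other counts stayed within 1.5 times.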
